A study of Mus musculus with 12 samples.

Results

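The glucocorticoid receptor and the proteins that fold it and hold it ready for hormone were followed in MEFs, fibroblasts cultured from mouse embryos. The 10 genes were Nr3c1, which encodes the glucocorticoid receptor (GR), its close relative Nr3c2, and the chaperone and co-chaperone genes Fkbp5, Fkbp4, Ptges3, Stip1, Hsp90aa1, Hsp90ab1, Hspa8 and Dnaja1. All non-control probes carrying one of these names, or an older alias, in the scanner files were taken, and no measured value entered that choice. This gave 24 of the 41174 probes on the array, for 10 of its 27674 gene names. Of the 24 probes, 21 stood well above background on every array of 1 group or more and were tested, and at least 1 probe of each gene was among them.

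RNA was measured on 12 one-colour Agilent arrays, 3 in each of 4 groups. The groups were homozygous GR-C3 knockin MEFs given 100 nM dexamethasone (Dex, a synthetic glucocorticoid) for 6 hours, homozygous GR-C3 knockin MEFs given vehicle for 6 hours, WT MEFs given 100 nM Dex for 6 hours, and WT MEFs given vehicle for 6 hours. In the knockin, the start codon of the GR-C3 isoform in exon 2 of Nr3c1 was kept and the start codons of the other translational isoforms were changed, so the allele can make this shorter receptor form alone. All cells came from E12.5 embryos on a C57Bl/6 background, the knockin descended from a single targeted embryonic stem cell clone, and the labels do not say how many embryos stand behind each group.

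Newly made GR is passed from Hsp70, with an Hsp40 partner, to the Hsp90 dimer, and Stip1 (also called Hop) holds the Hsp70 and Hsp90 machines together during the transfer. Hsp90 with Ptges3, the co-chaperone p23, then keeps the receptor in the form that binds hormone. The immunophilins Fkbp5 (FKBP51) and Fkbp4 (FKBP52) compete for the same place on that complex: Fkbp5 lowers hormone binding and slows nuclear entry, whereas Fkbp4 links the receptor to dynein and favours its activity. Fkbp5 is a widely used GR target gene, so its product closes a feedback loop on the receptor.

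Each level below is the log2 processed signal minus the log2 75th percentile of its array, so it is relative to that array, and levels of different probes are not compared. A probe was called where the Benjamini-Hochberg adjusted p over all 30923 tested probes was under 0.05 in limma. Each log2 change is given ± its standard error. Between 71.3 and 79.0% of probes were well above background on an array, no probe of the 10 genes was saturated, and the small number of arrays limits the precision.

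One WT vehicle array stood apart, the one labelled replicate 1. It correlated across probes at 0.982 with each of the other WT vehicle arrays, whose own correlation was 0.998. Its slide and scan day held no other array. All 7 measured Dex-responsive check genes lay nearer the WT Dex mean on it than the mean of the other WT vehicle arrays. So did 14 of the 21 probes described here. That count was not taken over all probes, so it is not read as particular to these genes. Results are therefore given for all 12 arrays and for the 11 arrays without it. That choice rested in part on Dex-responsive values, which the 11-array fits then test. The 11-array p-values are thus conditional on it. The fibroblast marker list was well measured on every array: all 11 of its 11 genes were kept, with summed linear levels relative to the 75th percentile of 1222 to 1328 in GR-C3 Dex, 1147 to 1424 in GR-C3 vehicle, 1165 to 1490 in WT Dex and 1039 to 1247 in WT vehicle.

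Nr3c1, the targeted gene, was measured by 4 probes. All lie on the minus strand of chromosome 18 within 39787242 to 39790865 (build mm7) (their place in exons or untranslated regions was not analysed here). The knockin changes single bases of exon 2, so the transcript level read by these probes does not check the genotype labels. The probe A_52_P138090 was designed on a cDNA other than the RefSeq transcript and lies 2252 bases from the nearest of the other 3.

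Probe A_52_P138090 of Nr3c1 read 1.53, 1.44 and 1.39 in GR-C3 Dex, against 1.86, 1.83 and 1.86 in GR-C3 vehicle. It read 1.26, 1.06 and 1.07 in WT Dex, against 1.20, 1.80 and 1.80 in WT vehicle, where the 1.20 is the array that stood apart. In both genotypes every Dex array was thus below every vehicle array once that array was left out. In WT the groups overlapped with it. Over all probes, Dex and vehicle arrays did not overlap for 27.5% in GR-C3 and 43.4% in WT with 11 arrays. With 11 arrays Nr3c1 fell by 0.40 ± 0.085 in GR-C3 cells (adjusted p = 0.0363) and by 0.67 ± 0.095 in WT cells (adjusted p = 0.00169) by this probe, which is a fold of 0.759 in GR-C3 and 0.629 in WT. With 12 arrays neither change was called, with adjusted p of 0.383 in GR-C3 and 0.187 in WT. In the 11-array fit with the slide as a block the changes were -0.41 (adjusted p = 0.116) in GR-C3 and -0.53 (adjusted p = 0.0338) in WT. The GR-C3 call also missed the threshold in 7 of 11 fits that left out 1 further array, with adjusted p up to 0.161, while the WT call held in all 11.

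The Dex changes of the genotypes did not differ past the threshold for Nr3c1: the interaction of A_52_P138090, the Dex effect in GR-C3 less that in WT, was 0.27 ± 0.13 with 11 arrays (adjusted p = 0.369). Under Dex this probe was higher in GR-C3 cells by 0.32 ± 0.085 with 11 arrays (adjusted p = 0.0144) and by 0.32 ± 0.15 with 12 (adjusted p = 0.136). With the slide as a block the difference was 0.38 with an adjusted p of 0.0992, and without GR-C3 Dex replicate 1 it was 0.28 with an adjusted p of 0.0503. Under vehicle the 11-array difference was 0.05 ± 0.095 (adjusted p = 0.717).

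The other 3 Nr3c1 probes had larger standard errors than A_52_P138090. A_52_P63106 read -1.39, -1.62 and -1.52 in GR-C3 Dex and -1.47, -1.45 and -1.36 in GR-C3 vehicle. In WT it read -1.16, -1.91 and -1.41 with Dex and -1.51, -0.81 and -0.90 with vehicle, the first of these on the array that stood apart. With 11 arrays its change with Dex was -0.08 ± 0.16 (adjusted p = 0.835) in GR-C3 and -0.64 ± 0.18 (adjusted p = 0.0517) in WT, so the WT value lay close to that of A_52_P138090 and just missed the threshold. Under vehicle this probe was lower in GR-C3 with 11 arrays, with a difference of -0.58 ± 0.18 (adjusted p = 0.0427). That call was lost in 8 of 11 fits without 1 further array and the difference was -0.11 with the slide as a block (adjusted p = 0.86).

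A_51_P355693 and A_52_P254174 gave no call in any of the 5 comparisons with 12 or with 11 arrays. Over the 12 arrays A_51_P355693 of Nr3c1 ranged between -1.27 in a WT Dex array and -2.82 in the WT vehicle array that stood apart. The 11-array Dex changes of A_51_P355693 were 0.22 ± 0.24 in GR-C3 and -0.50 ± 0.27 in WT, and those of A_52_P254174 were -0.22 ± 0.26 in GR-C3 and -0.75 ± 0.29 in WT. All 4 probes thus had a negative 11-array change in WT, of which 1 was called, and 3 of 4 had one in GR-C3, of which 1 was called. Within slide 2, WT Dex replicate 1 minus the mean of WT vehicle replicates 2 and 3 was -0.31 for A_52_P63106. It was 0.06 for A_51_P355693 and -0.21 for A_52_P254174. Within slide 4, the 3 GR-C3 Dex arrays minus GR-C3 vehicle replicate 3 gave -0.15, -0.16 and -0.24 in the same order. Within a slide the change of A_51_P355693 thus had the opposite sign in both genotypes.

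**Figure D1:**
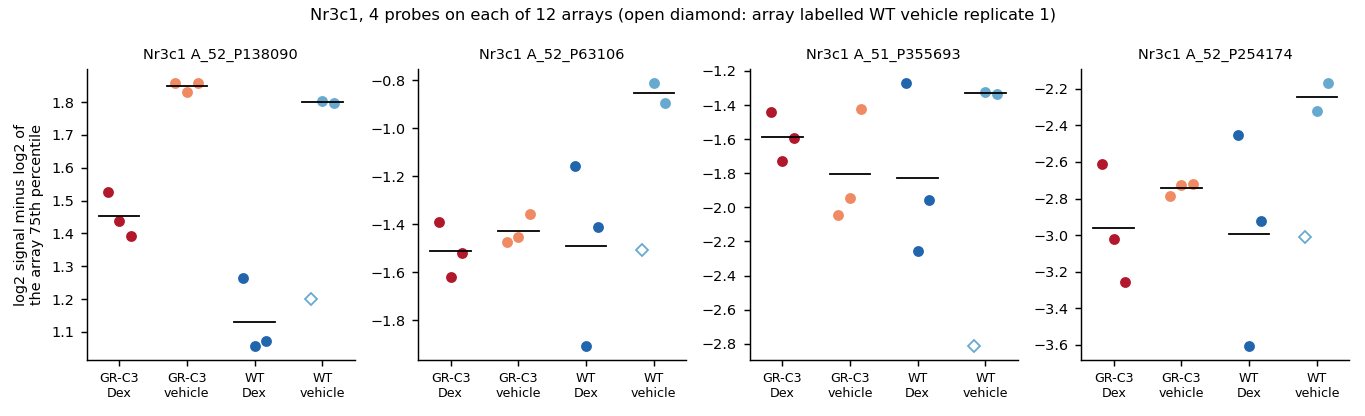
Levels of Nr3c1 by 4 probes in GR-C3 Dex, GR-C3 vehicle, WT Dex and WT vehicle cells, as log2 signal minus the log2 75th percentile of the array (vertical axes differ between panels). Points are arrays, the open diamond is the array labelled WT vehicle replicate 1, and lines are group means, for WT vehicle over the other 2 arrays. In the first panel the Dex arrays of each genotype lie below its vehicle arrays apart from the diamond, which reads 1.20.

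Nr3c2 encodes the mineralocorticoid receptor, which also binds glucocorticoids and uses much of the same chaperone machinery. Of its 3 probes, on chromosome 8 between 75452132 and 75453328 (mm7, plus strand), only A_52_P378137 was kept. It read -2.12, -2.56 and -1.83 in GR-C3 Dex and -2.85, -2.39 and -3.21 in GR-C3 vehicle, so the groups overlapped. In WT it read -3.14, -2.41 and -2.72 with Dex and -2.58, -3.17 and -3.25 with vehicle. These overlapped only through the -2.58 of the array that stood apart. No comparison of this probe was called: its Dex change was 0.65 ± 0.25 in GR-C3 (adjusted p = 0.236) and 0.46 ± 0.28 in WT (adjusted p = 0.325) with 11 arrays. Of the 2 other probes, A_51_P377914 was well above background on 1 GR-C3 Dex array alone and A_52_P264543 on none, and no fold is given for them. All 3 probes are listed with predicted transcripts.

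Fkbp5 was the gene that moved most. Its 3 probes lie on the minus strand of chromosome 17, A_51_P383689 at 26586393 to 26586452, A_52_P337899 at 26587108 to 26587167 and A_52_P481493 at 26624510 to 26624569 (mm7), the last of them 38117 bases from the first. All 3 were well above background on all 12 arrays.

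A_51_P383689 of Fkbp5 read 0.46, 0.94 and 0.96 in GR-C3 Dex, against -2.24, -2.38 and -2.24 in GR-C3 vehicle. It read 2.15, 1.89 and 2.06 in WT Dex, against 1.51, -2.64 and -2.74 in WT vehicle. In GR-C3 the Dex and vehicle arrays were far apart, and in WT the same held for every vehicle array but the one that stood apart, whose 1.51 was above the highest GR-C3 Dex array.

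A_52_P337899 gave the same picture, with -0.88, -0.71 and -0.76 in GR-C3 Dex, against -3.36, -3.23 and -3.30 in GR-C3 vehicle. In WT it read 0.24, 0.16 and 0.31 with Dex, against 0.26, -3.81 and -3.82 with vehicle. A_52_P481493 read -1.94, -2.36 and -2.29 in GR-C3 Dex, against -3.88, -3.79 and -4.17 in GR-C3 vehicle. In WT this probe read -1.20, -1.37 and -1.13 with Dex, against -0.64, -4.82 and -4.85 with vehicle. On these 2 probes the array that stood apart overlapped the WT Dex arrays or exceeded them.

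With 11 arrays all 3 Fkbp5 probes rose with Dex in both genotypes. The log2 changes of A_51_P383689 were 3.07 ± 0.14 in GR-C3 (adjusted p = 4.05e-06) and 4.72 ± 0.15 in WT (adjusted p = 1.3e-07), which are folds of 8.41 and 26.4. A_52_P337899 rose 5.72-fold in GR-C3 and 16.6-fold in WT, and A_52_P481493 rose 3.37-fold in GR-C3 and 12.1-fold in WT, with adjusted p between 4.2e-08 and 0.000141. These 6 calls held in all 11 fits that left out 1 further array and with the slide as a block. In the slide-block fit the WT changes rest on WT Dex replicate 1 alone among the WT Dex arrays. The GR-C3 changes there rest on GR-C3 vehicle replicate 3 alone among the GR-C3 vehicle arrays.

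With all 12 arrays the same changes were not called, and their standard errors were 0.82 to 0.85, beside 0.084 to 0.15 with 11. The log2 changes were then 3.07, 2.52 and 1.75 in GR-C3, with adjusted p of 0.202, 0.29 and 0.487, and 3.33, 2.69 and 2.20 in WT, with adjusted p of 0.13, 0.171 and 0.238. When only the 6 GR-C3 arrays were fitted, 4 of the 21 probes were called for Dex, where 2.5% of all probes were.

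The Dex response of Fkbp5 was smaller in GR-C3 than in WT with 11 arrays. The interaction was -1.65 ± 0.21 for A_51_P383689 (adjusted p = 0.00781), -1.53 ± 0.13 for A_52_P337899 (adjusted p = 0.000775) and -1.85 ± 0.21 for A_52_P481493 (adjusted p = 0.00452). With 12 arrays the interactions were -0.25, -0.18 and -0.45, with adjusted p of 0.965 to 0.987. With the slide as a block in the 11-array fit the values were -1.82 (adjusted p = 0.108), -1.54 (adjusted p = 0.041) and -1.66 (adjusted p = 0.0962). Leaving out WT vehicle replicate 3 as well moved the adjusted p of A_51_P383689 to 0.0578, and the calls of the other 2 probes held in all 11 such fits.

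The order of the Fkbp5 groups was the same on all 3 probes: WT Dex was highest, then GR-C3 Dex, GR-C3 vehicle and WT vehicle without replicate 1. Under Dex, Fkbp5 was lower in GR-C3 with 11 arrays, with log2 differences of -1.25, -1.02 and -0.96 and adjusted p of 0.000106, 1.53e-05 and 0.000532, and with 12 arrays none of these differences was called (adjusted p of 0.292 to 0.422). Under vehicle it was higher in GR-C3 than in the 2 other WT vehicle arrays by 0.40 ± 0.15 (adjusted p = 0.0815), 0.52 ± 0.094 (adjusted p = 0.00331) and 0.89 ± 0.15 (adjusted p = 0.00255). With 12 arrays the vehicle differences were -1.0, -0.84 and -0.51, of the opposite sign and not called (adjusted p of 0.433 to 0.7). With the slide as a block, the difference of A_52_P337899 under vehicle and that of A_52_P481493 under Dex were no longer called, at 0.53 (adjusted p = 0.104) and -0.61 (adjusted p = 0.129).

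**Figure D2:**
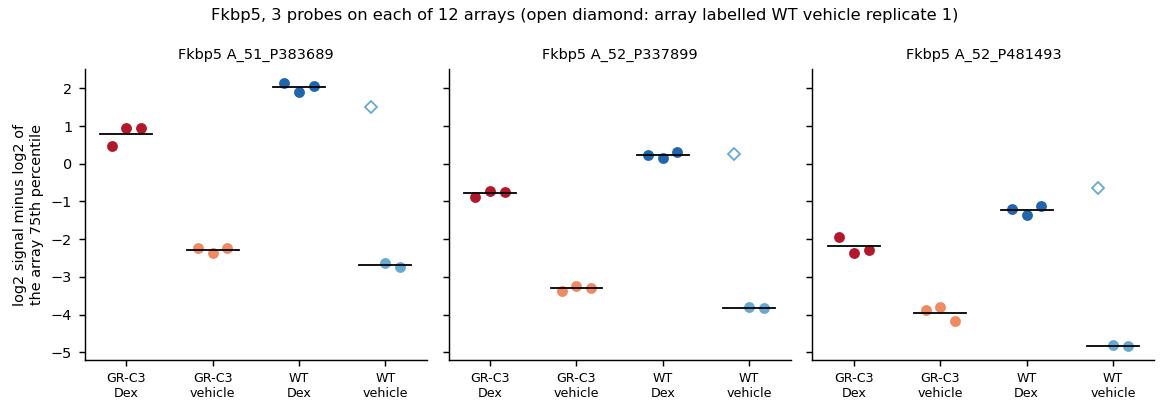
Levels of Fkbp5 by 3 probes in GR-C3 Dex, GR-C3 vehicle, WT Dex and WT vehicle cells, on 1 shared vertical axis of log2 signal minus the log2 75th percentile of the array. Points are arrays, the open diamond is the array labelled WT vehicle replicate 1, and lines are group means, for WT vehicle over the other 2 arrays. On each probe GR-C3 Dex lies between WT Dex and both vehicle groups, and the diamond lies with the Dex arrays.

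The 250 bases before the Fkbp5 start are shown because Fkbp5 had the largest Dex change of the 10 genes (RefSeq, GRCm38.p6, chr17:28486150-28486399, minus strand), written 5′ to 3′.
Fkbp5: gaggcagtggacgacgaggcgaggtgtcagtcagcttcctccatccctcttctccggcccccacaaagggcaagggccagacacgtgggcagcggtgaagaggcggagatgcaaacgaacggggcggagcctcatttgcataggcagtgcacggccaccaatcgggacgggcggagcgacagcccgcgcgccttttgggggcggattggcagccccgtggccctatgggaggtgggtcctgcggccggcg
The window was searched on both strands for the GR half-site AGAACA or TGTTCT, for the full site, AGAACA and TGTTCT parted by 3 bases, and for the heat shock motif GAANNTTC or TTCNNGAA, and holds none of them. Among 32851 such windows of 27025 genes, 16.1% hold the half-site, 0.00913% the full site and 12.8% the heat shock motif. The absence of a match says only that these letters are not in this window.

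Among the genes whose levels followed Fkbp5 most closely over the 12 arrays, of 20706 other genes at 1 probe each, were Cyp26b1, Angptl7, Mt2 and Klf9. Their Pearson r with A_51_P383689 lay between 0.983 for Klf9 and 0.990 for Cyp26b1. For the Nr3c1 probe A_52_P138090 they were Car8 (0.983), Irgm1 (0.981), Ch25h (0.978), Sdhaf3 (0.974) and Snx9 (0.970). These values are descriptions over 12 arrays that share the Dex treatment, the genotype and the array that stood apart.

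Fkbp4 differed between genotypes and was called for Dex in neither. Its 2 probes lie on the minus strand of chromosome 6, A_51_P185175 at 128453749 to 128453808 and A_52_P585104 at 128456421 to 128456480 (mm7). A_51_P185175 read 1.10, 1.25 and 1.31 in GR-C3 Dex, against 0.50, 0.66 and 0.68 in WT Dex. It read 1.38, 1.20 and 1.19 in GR-C3 vehicle, against 0.39, 0.76 and 0.57 in WT vehicle. Every GR-C3 array was above every WT array, and the same held for A_52_P585104. That probe ranged between 1.52 and 1.87 over the 6 GR-C3 arrays and between 0.91 and 1.36 over the 6 WT arrays. With 12 arrays 48.3% of all probes did not overlap between genotypes under Dex, and 42.9% under vehicle.

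With 12 arrays Fkbp4 was higher in GR-C3 under Dex by 0.61 ± 0.12 (adjusted p = 0.00439) and 0.50 ± 0.13 (adjusted p = 0.0188) on the log2 scale. Under vehicle it was higher by 0.68 ± 0.12 (adjusted p = 0.00248) and 0.67 ± 0.13 (adjusted p = 0.00465). The 4 differences are folds of 1.41 to 1.61, and all 4 were also called with 11 arrays (adjusted p of 0.00143 to 0.0102). Over all tested probes the median genotype difference was 0.11 under Dex and 0.08 under vehicle.

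No slide held both genotypes under the same treatment, so no genotype difference could be taken within a slide, and the slide-block fit links the genotypes through slide 3 alone, which holds 2 WT Dex and 2 GR-C3 vehicle arrays. In that fit the Fkbp4 differences with 12 arrays were 0.65 (adjusted p = 0.051) and 0.61 (adjusted p = 0.0736) under Dex, and 0.45 (adjusted p = 0.203) and 0.39 (adjusted p = 0.291) under vehicle, all positive and none called. A_52_P585104 under Dex also missed the threshold without WT Dex replicate 1 or 3 or GR-C3 Dex replicate 2 or 3, with differences of 0.41 to 0.50 and adjusted p of 0.0507 to 0.0787. The 12-array calls of A_51_P185175, and that of A_52_P585104 under vehicle, held in all 12 fits that left out 1 array. With 11 arrays the vehicle calls were lost without 1 further array in 1 fit of 11 for A_51_P185175 and in 2 of 11 for A_52_P585104, with adjusted p up to 0.0779. The Dex changes of Fkbp4 with 11 arrays lay between -0.07 and 0.02 on the log2 scale in both genotypes (adjusted p of 0.796 to 0.942).

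Hspa8, the constitutive Hsp70 (Hsc70) that receives newly made GR, was measured by 2 probes. Both carry coordinates on chromosome 5 (5787852 to 5787911 and 5788853 to 5788912, mm7, minus strand) in the scanner files, while the RefSeq table places Hspa8 on chromosome 9. The values may thus include signal of a near-identical copy and are uncertain as a measure of Hspa8 alone.

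A_51_P170371 read 7.41, 7.39 and 7.58 in GR-C3 Dex, against 7.26, 7.31 and 7.09 in GR-C3 vehicle. In WT it read 7.38, 7.54 and 7.33 with Dex, against 6.98, 6.99 and 6.97 with vehicle. Here the array labelled WT vehicle replicate 1 lay with its own group, and Dex and vehicle arrays did not overlap in either genotype. A_52_P12877 read 5.80, 6.12 and 6.11 in GR-C3 Dex, against 5.78, 5.66 and 5.57 in GR-C3 vehicle. The WT arrays read 6.11, 6.55 and 6.32 with Dex, against 5.55, 5.74 and 5.63 with vehicle, again without overlap. Over all probes, Dex and vehicle arrays did not overlap for 27.5% in GR-C3 and 15.7% in WT with 12 arrays.

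With 11 arrays Hspa8 rose in WT by 0.44 ± 0.11 (adjusted p = 0.0304) and 0.64 ± 0.15 (adjusted p = 0.0227), and its changes in GR-C3 were 0.24 ± 0.099 (adjusted p = 0.26) and 0.34 ± 0.13 (adjusted p = 0.239). With 12 arrays the WT changes were 0.44 (adjusted p = 0.118) and 0.68 (adjusted p = 0.0887). Within slide 2, WT Dex replicate 1 minus the mean of WT vehicle replicates 2 and 3 was 0.40 and 0.42. Within slide 4 the 3 GR-C3 Dex arrays minus GR-C3 vehicle replicate 3 gave 0.37 and 0.44. These differences are also the Dex changes of the slide-block fit, so that fit is no separate check. Neither WT change was called with the slide as a block, with adjusted p of 0.192 and 0.289. The 11-array WT calls were also lost in 5 of 11 fits for A_51_P170371 and 3 of 11 for A_52_P12877 when 1 further array was left out, with adjusted p up to 0.193. The interactions, -0.20 ± 0.15 and -0.30 ± 0.20 with 11 arrays, were not called (adjusted p of 0.56 and 0.519).

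Dnaja1, an Hsp40 that stimulates the ATPase of Hspa8, was measured by 3 probes on the plus strand of chromosome 4, and they did not give the same answer. A_52_P106429, whose coordinates 40868736 to 40870191 (mm7) span 1456 bases and so cross at least 1 intron, read 4.66, 4.75 and 4.76 in GR-C3 Dex, against 4.45, 4.40 and 4.16 in WT Dex. It read 4.76, 4.85 and 4.70 in GR-C3 vehicle, against 4.13, 4.53 and 4.42 in WT vehicle, so every GR-C3 array was above every WT array. Of all probes, 48.3% did not overlap between genotypes under Dex and 42.9% under vehicle with 12 arrays. A_52_P106429 was higher in GR-C3 with 12 arrays by 0.39 ± 0.13 under Dex (adjusted p = 0.0389) and by 0.41 ± 0.13 under vehicle (adjusted p = 0.0364). With 11 arrays the Dex difference was called (adjusted p = 0.0111) and the vehicle difference, 0.29 ± 0.11, was not (adjusted p = 0.0718).

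The calls of A_52_P106429 were fragile with 12 arrays: each was lost in 7 of 12 fits that left out 1 array, with differences of 0.30 to 0.45 under Dex and 0.29 to 0.49 under vehicle. With the slide as a block the differences were 0.56 (adjusted p = 0.0648) and 0.50 (adjusted p = 0.138). The other 2 Dnaja1 probes, at 40871783 to 40871842 and 40872090 to 40872149 (mm7), were called in no comparison. Their 12-array genotype differences were 0.00 ± 0.14 and -0.02 ± 0.12 under Dex, and -0.01 ± 0.14 and 0.15 ± 0.12 under vehicle. A_52_P106429 lists a predicted transcript beside the Dnaja1 one, and A_52_P310225 and A_51_P303346 do not.

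The promoter windows of Fkbp4 and Dnaja1 are shown because these were the genes called between genotypes with 12 arrays, and each holds 1 match to the heat shock motif in capitals (RefSeq, GRCm38.p6, 250 bases before the start, 5′ to 3′). The Fkbp4 window is chr6:128438657-128438906 on the minus strand, with the match GAAAGTTC beginning 151 bases before the start. The Dnaja1 window is chr4:40722218-40722467 on the plus strand, the first of 3 listed starts, with the match GAAAATTC beginning 124 bases before it. The windows of the other Dnaja1 starts, chr4:40722672-40722921 and chr4:40722680-40722929, hold no match to the motif and are not shown.
Fkbp4: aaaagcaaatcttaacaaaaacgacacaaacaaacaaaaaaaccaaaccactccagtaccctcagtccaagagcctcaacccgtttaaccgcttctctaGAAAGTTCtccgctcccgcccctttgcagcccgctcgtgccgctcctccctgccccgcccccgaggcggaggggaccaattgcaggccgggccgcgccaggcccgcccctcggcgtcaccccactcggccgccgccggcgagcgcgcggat
Dnaja1: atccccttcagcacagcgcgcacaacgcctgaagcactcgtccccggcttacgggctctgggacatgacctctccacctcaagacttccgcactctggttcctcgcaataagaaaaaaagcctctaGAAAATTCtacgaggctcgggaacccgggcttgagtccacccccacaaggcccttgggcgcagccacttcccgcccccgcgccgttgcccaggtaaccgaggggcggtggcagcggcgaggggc
Of the 6 genes whose windows were searched, Nr3c2 held 1 such match too, and Ptges3, Stip1 and Fkbp5 held none. A match to this motif occurs in the windows of 14.5% of all genes. It is a description of the letters, and binding was not measured.

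Stip1, the adaptor between Hsp70 and Hsp90, was measured by A_51_P386880 on chromosome 19 (6840807 to 6840866, mm7, minus strand). It read 2.75, 2.98 and 3.00 in GR-C3 Dex and 2.98, 2.86 and 2.82 in GR-C3 vehicle. The WT arrays read 2.57, 2.96 and 2.85 with Dex and 2.75, 2.51 and 2.34 with vehicle. The groups overlapped in GR-C3, and in WT only through the 2.75 of the array that stood apart. Under vehicle Stip1 was higher in GR-C3 by 0.46 ± 0.14 with 11 arrays (adjusted p = 0.0298) and by 0.36 ± 0.14 with 12 (adjusted p = 0.0896). That call was lost in 4 of 11 fits without 1 further array, and with the slide as a block the difference was 0.16 (adjusted p = 0.695). The second Stip1 probe lies 16622 bases away, comes from a cDNA clone, was well above background on 1 GR-C3 Dex array alone and was not tested.

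No Dex change of an Hsp90 gene was called. Hsp90aa1, the inducible form, read 6.97, 6.88 and 6.99 in GR-C3 Dex, against 6.51, 6.84 and 6.31 in WT Dex. It read 6.80, 7.0 and 6.80 in GR-C3 vehicle, against 6.40, 6.64 and 6.47 in WT vehicle, so GR-C3 arrays were above WT arrays in both treatments. The genotypes did not overlap for 48.3% of all probes under Dex and 42.9% under vehicle with 12 arrays. The difference under Dex was 0.40 ± 0.13 with 11 arrays (adjusted p = 0.0388) and 0.40 ± 0.14 with 12 (adjusted p = 0.0532), and it was lost in 8 of 11 fits without 1 further array and with the slide as a block (0.48, adjusted p = 0.276). Under vehicle it was 0.36 ± 0.14 with 12 arrays (adjusted p = 0.085) and 0.31 ± 0.15 with 11 (adjusted p = 0.153).

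Hsp90ab1, the constitutive form, was called in none of the 5 comparisons by either probe. A_51_P485043 read 6.00, 6.12 and 6.26 in GR-C3 Dex and 6.09, 6.09 and 5.98 in GR-C3 vehicle, which overlapped. It read 6.23, 6.28 and 6.34 in WT Dex, against 5.88, 6.05 and 5.94 in WT vehicle. These did not overlap, as held for 15.7% of all probes in WT with 12 arrays. The WT change of this probe, 0.29 ± 0.10 with 11 arrays, had an adjusted p of 0.104. A_52_P257204 ranged between 2.58 and 3.30 over the 12 arrays, with 11-array Dex changes of 0.19 ± 0.15 in GR-C3 and 0.22 ± 0.16 in WT.

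Ptges3, the p23 co-chaperone, was also called in none of these comparisons with 12 or 11 arrays. A_52_P249699 read 1.81, 1.96 and 2.05 in GR-C3 Dex, above the 1.63, 1.62 and 1.60 of GR-C3 vehicle. In WT it read 2.03, 1.33 and 1.29 with Dex and 1.70, 1.80 and 1.83 with vehicle, so WT Dex replicate 1 lay apart from the 2 others of its group. Its Dex changes with 11 arrays were 0.32 ± 0.17 in GR-C3 (adjusted p = 0.372) and -0.26 ± 0.19 in WT (adjusted p = 0.408), and the interaction of 0.58 ± 0.26 was not called (adjusted p = 0.347). A_51_P474367 showed the same high array, with 3.63, 3.03 and 3.13 in WT Dex, and its 11-array changes were 0.07 ± 0.14 in GR-C3 and -0.17 ± 0.16 in WT. WT Dex replicates 2 and 3 lay on slide 3. Within slide 2, WT Dex replicate 1 minus the mean of WT vehicle replicates 2 and 3 was 0.22 and 0.20 (A_52_P249699 first). The sign in WT was thus opposite within that slide. The slide-block interactions set the slide 2 difference against the GR-C3 difference within slide 4, and are no separate check. They were 0.12 ± 0.17 and -0.09 ± 0.15, neither of them called. With the slide as a block in the 12-array fit, A_52_P249699 was called higher in GR-C3 under Dex, by 0.65 ± 0.15 (adjusted p = 0.032), against 0.39 ± 0.17 without it (adjusted p = 0.113).

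**Figure D3:**
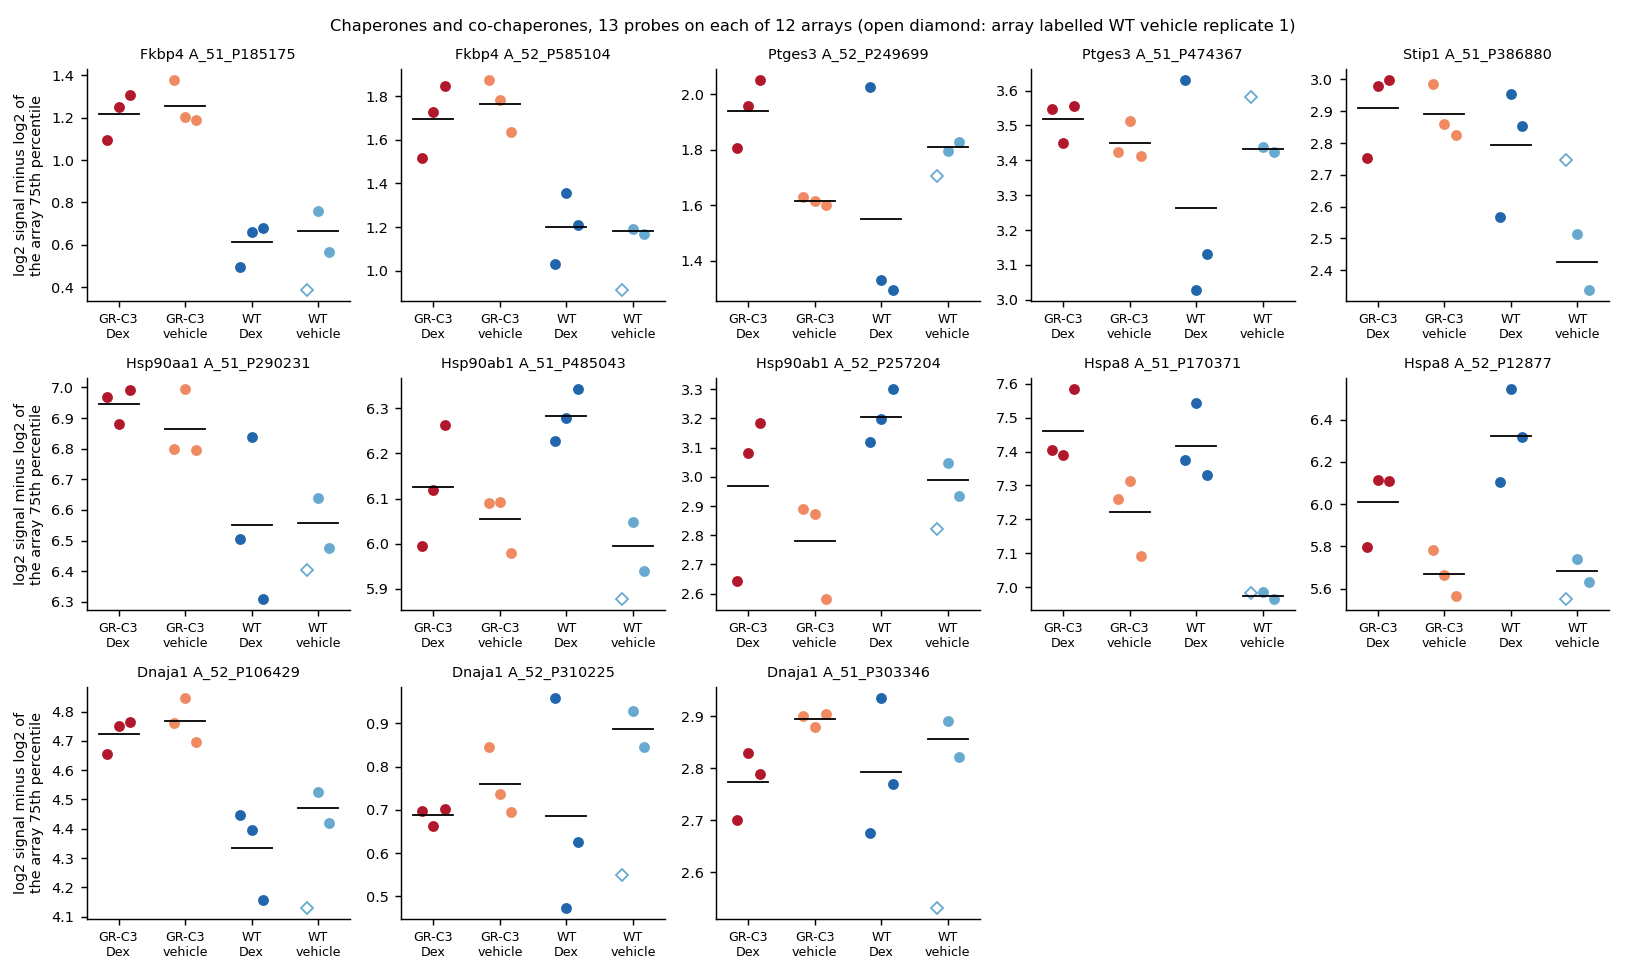
Levels of Fkbp4, Ptges3, Stip1, Hsp90aa1, Hsp90ab1, Hspa8 and Dnaja1 by 13 probes in GR-C3 Dex, GR-C3 vehicle, WT Dex and WT vehicle cells, as log2 signal minus the log2 75th percentile of the array (vertical axes differ between panels). Points are arrays, the open diamond is the array labelled WT vehicle replicate 1, and lines are group means, for WT vehicle over the other 2 arrays. Both Fkbp4 probes and Dnaja1 A_52_P106429 lie higher in all GR-C3 arrays than in all WT arrays, and both Hspa8 probes lie higher with Dex than with vehicle in each genotype.

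Counted over the 21 probes, none was called for Dex in GR-C3 with 12 arrays, where 0.11% of all tested probes were called, and none for Dex in WT, where 0.0485% were. At an unadjusted p under 0.05 there were 6 of 21 in GR-C3 and 7 of 21 in WT, against 3402 and 5177 of all 30923. With 11 arrays 4 of 21 were called in GR-C3, 3 Fkbp5 probes higher and 1 Nr3c1 probe lower, where 2.93% of all probes were called. In WT 6 of 21 were called, the 3 Fkbp5 and 2 Hspa8 probes higher and 1 Nr3c1 probe lower, where 11.3% of all probes were called. Without WT Dex replicate 1 as well, 13 of 21 were called in WT, where 21.4% of all probes were. The median Dex change of the 21 probes was 0.07 in GR-C3 and -0.01 in WT with 11 arrays, beside 0.01 and 0.00 over all probes. Dex and vehicle arrays did not overlap for 8 of 21 in GR-C3, beside 27.5% of all probes. In WT this held for 5 of 21 with 12 arrays, beside 15.7%, and 12 of 21 with 11, beside 43.4%.

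**Figure D4:**
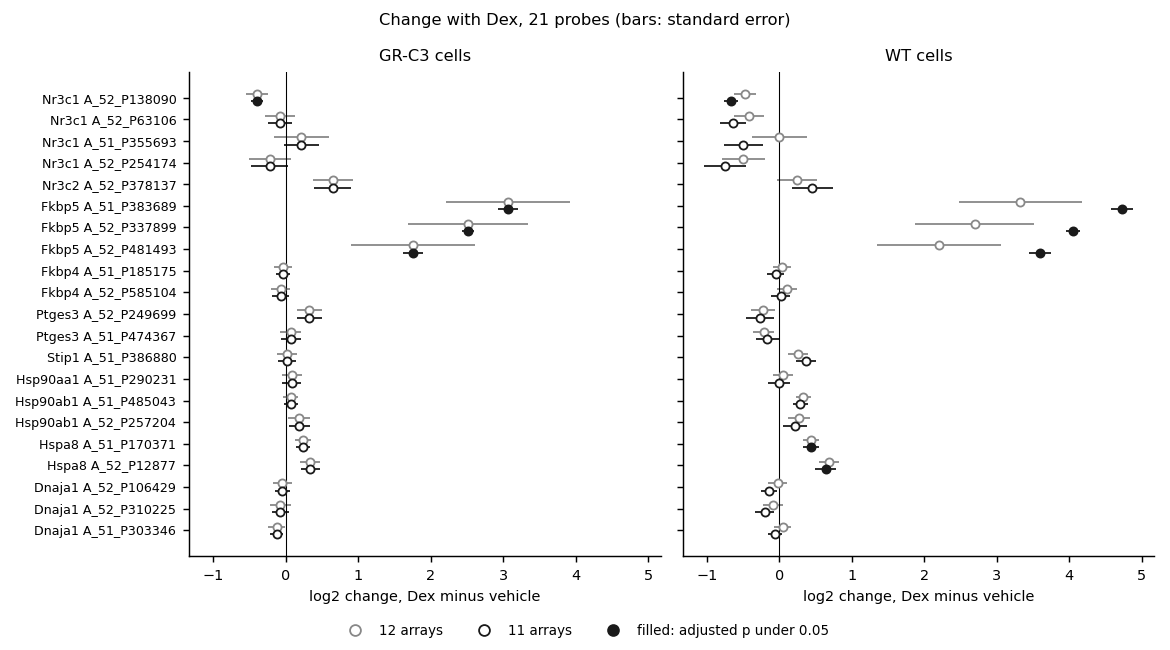
Log2 change with Dex, Dex minus vehicle, of the 21 tested probes in GR-C3 cells (left) and WT cells (right), with the standard error as bars. Grey points are fits of 12 arrays, black points fits of the 11 arrays without WT vehicle replicate 1, and filled points have an adjusted p under 0.05. The 3 Fkbp5 probes lie between 1.75 and 4.72 in the 11-array fit, and all other probes lie between -0.75 and 0.65.

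Between genotypes, 3 of 21 probes were called with 12 arrays under Dex, all higher in GR-C3, where 27.7% of all probes were called, and the same count held under vehicle, where 23.3% were. With 11 arrays 8 of 21 were called under Dex (5 higher, 3 lower in GR-C3), where 38.6% of all probes were called, and 6 of 21 under vehicle (5 higher, 1 lower), where 26.8% were. Without a second WT vehicle array the vehicle count was 3 (replicate 2), where 12.1% of all probes were called, or 2 (replicate 3), where 11% were. Without WT Dex replicate 3, GR-C3 Dex replicate 2 or GR-C3 Dex replicate 3 the 12-array count under Dex was 1, where 18%, 19.4% and 18.1% of all probes were called. The share of the 21 probes that was called was thus near or below that of all probes in each genotype comparison. The median genotype difference of the 21 probes was 0.04 under Dex with 12 arrays and 0.03 under vehicle, beside 0.11 and 0.08 over all probes. The genotypes did not overlap for 8 of 21 under Dex, beside 48.3% of all probes. Under vehicle this held for 8 of 21 with 12 arrays, beside 42.9%, and 16 of 21 with 11, beside 64.3%. For the interaction no probe of these genes and 0% of all probes were called with 12 arrays, with 1 of 21 and 1906 of 30923 at an unadjusted p under 0.05. With 11 arrays the 3 Fkbp5 probes, all lower, were called, where 0.886% of all probes were.

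**Figure D5:**
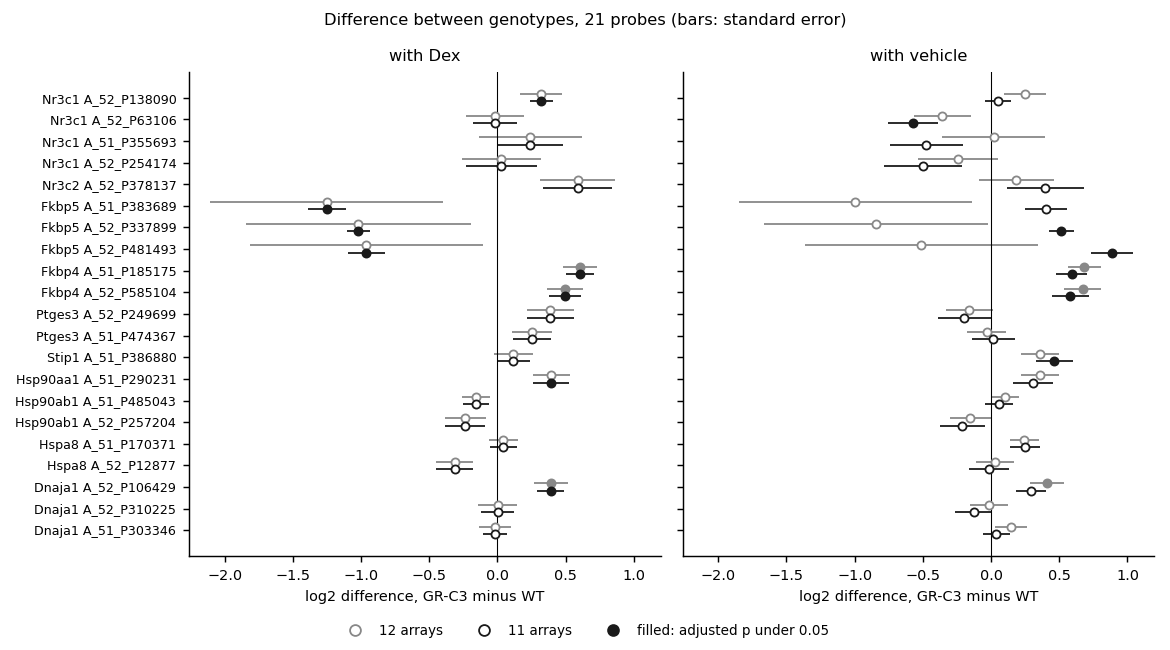
Log2 difference between genotypes, GR-C3 minus WT, of the 21 tested probes with Dex (left) and with vehicle (right), with the standard error as bars. Grey points are fits of 12 arrays, black points fits of the 11 arrays without WT vehicle replicate 1, and filled points have an adjusted p under 0.05. Both Fkbp4 probes are filled in every fit at 0.50 to 0.68, and the 3 Fkbp5 probes lie at -1.25 to -0.96 with Dex.

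Markers of other cell types differed between the genotypes beside these genes. All 4 of 4 chondrocyte markers were called lower in GR-C3 under both treatments with 12 arrays, with summed linear levels of 5.68 to 6.07 in GR-C3 Dex, 5.78 to 6.09 in GR-C3 vehicle, 47.6 to 56.4 in WT Dex and 43.3 to 47.3 in WT vehicle. The sums of 4 kept skeletal muscle markers were 19.2 to 21.6 in GR-C3 Dex, 18.7 to 22.3 in GR-C3 vehicle, 10.4 to 12.7 in WT Dex and 9.33 to 11.4 in WT vehicle, and 3 of the 4 were called higher in GR-C3 under Dex and 2 under vehicle. Of 6 epithelial markers 4 were kept, with Epcam and Cdh1 not among them, and their sums were 1.79 to 1.93 in GR-C3 Dex, 2.28 to 2.60 in GR-C3 vehicle, 0.611 to 0.877 in WT Dex and 0.765 to 0.873 in WT vehicle. Krt8 and Krt18 were called higher in GR-C3 under both treatments and Krt14 lower under Dex.

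Of the neural crest or neural markers, Sox10 was called higher and S100b lower in GR-C3 under both treatments, and Tubb3 higher under Dex. Of 6 macrophage or leukocyte markers Ptprc and Lyz2 were called lower in GR-C3 under both treatments, and the sums were 5.07 to 5.50 in GR-C3 Dex, 6.05 to 6.50 in GR-C3 vehicle, 6.52 to 7.49 in WT Dex and 6.88 to 8.50 in WT vehicle. Of 11 fibroblast markers 3 were called lower in GR-C3 under Dex and 2 under vehicle. Neither of the 2 kept endothelial markers was called by limma, with 1 under Dex and 0 under vehicle at an unadjusted p under 0.05, sums of 0.125 to 0.230 over the 12 arrays, and Pecam1 and Cdh5 not kept. The part of these differences in the Fkbp4, Dnaja1, Stip1 and Hsp90aa1 values was not tested, and in bulk RNA fewer cells of a type and less RNA per cell cannot be told apart.

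Among other genes of the pathway, counted at 1 probe a gene with 12.2% of 20832 genes called for Dex in WT and 3.47% in GR-C3 with 11 arrays, few chaperones were called with Dex. Of 22 further Hsp90 and GR co-chaperones none was called in GR-C3 (1 at an unadjusted p under 0.05) and 1 in WT, Ranbp9, a scaffold protein of an E3 ligase complex, which rose by 1.02 ± 0.11 (adjusted p = 0.000219). Of 27 Hsp70 and Hsp40 genes 1 was called in GR-C3, Hspa2, higher by 0.56 ± 0.12 (adjusted p = 0.0349), and 2 in WT, Dnajb4, higher by 0.99 ± 0.11 (adjusted p = 0.0003), and Hsph1, higher by 0.54 ± 0.11 (adjusted p = 0.0142). None of 13 genes of heat shock factor 1 regulation and chaperonins and none of 10 kept FKBP genes was called with Dex in either genotype, and at an unadjusted p under 0.05 each list had 1 gene in GR-C3 and 0 in WT.

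In the list of glucocorticoid availability and nuclear transport, 2 of 17 genes were called with Dex in GR-C3 and 2 in WT with 11 arrays. H6pd, which supplies NADPH to the cortisone-reducing enzyme Hsd11b1, rose by 0.58 ± 0.10 in GR-C3 (adjusted p = 0.0162) and by 1.07 ± 0.11 in WT (adjusted p = 0.000272). Of 9 kept steroid and related receptors 1 was called in GR-C3 and 3 in WT. Vdr, the vitamin D receptor, rose by 1.25 ± 0.073 in GR-C3 (adjusted p = 2.06e-05) and by 1.50 ± 0.082 in WT (adjusted p = 4.59e-06). Of 17 GR coregulators none was called in GR-C3 (1 at an unadjusted p under 0.05) and 2 in WT, Ncoa1, higher by 0.42 ± 0.11 (adjusted p = 0.0317), and Nrip1, higher by 0.41 ± 0.11 (adjusted p = 0.0449). With 12 arrays no gene of these lists was called with Dex in either genotype by limma, where 0.101% of genes were called in GR-C3 and 0.12% in WT, and 0 to 5 genes of a list had an unadjusted p under 0.05.

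Between genotypes the lists moved more, in a comparison where 29.7% of 20832 genes were called under Dex and 24.8% under vehicle with 12 arrays. Of the 13 genes of heat shock factor 1 regulation and chaperonins, 7 were called under Dex and 9 under vehicle, all higher in GR-C3, with a median difference of 0.32 under Dex and 0.39 under vehicle, beside 0.13 and 0.11 over all genes. They were Hspd1 and Hspe1, the mitochondrial chaperonin pair, and 5 or 7 subunits of the cytosolic chaperonin. Hspd1 was higher by 0.59 ± 0.098 under Dex (adjusted p = 0.00154) and by 0.48 ± 0.098 under vehicle (adjusted p = 0.00568). Hsf1 itself, Hsf2, Hsbp1 and Cct6a were called in neither.

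Of the 22 other Hsp90 and GR co-chaperones 2 were higher and 3 lower in GR-C3 under Dex, and 2 were higher under vehicle. Ppid, the cyclophilin that takes the same place on Hsp90 as the FKBP proteins, was higher by 0.55 ± 0.11 under Dex (adjusted p = 0.00331) and by 0.54 ± 0.11 under vehicle (adjusted p = 0.00447), and the phosphatase Ppp5c, which also sits in GR complexes, was called higher in both. Of the 27 Hsp70 and Hsp40 genes 6 were higher and 3 lower under Dex, and 4 were higher and 1 lower under vehicle. Bag2, an inhibitor of Hsp70 client ubiquitination, was higher by 0.58 ± 0.14 under Dex (adjusted p = 0.0112) and by 0.73 ± 0.14 under vehicle (adjusted p = 0.00386), and Dnaja4 had a difference of -1.01 ± 0.13 under Dex (adjusted p = 0.000343). Of the 10 FKBP genes 1 was higher and 3 lower under Dex, and 2 were higher and 2 lower under vehicle.

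Hsd11b1, which makes active glucocorticoid from its inactive form inside cells, was lower in GR-C3: the log2 difference was -1.11 ± 0.12 under Dex (adjusted p = 0.000102) and -1.17 ± 0.12 under vehicle (adjusted p = 7.29e-05). Abcb1b, an efflux pump of the family that exports glucocorticoids, had differences of -0.91 ± 0.10 under Dex (adjusted p = 0.0001) and -0.87 ± 0.10 under vehicle (adjusted p = 0.00015). They were among 6 higher and 3 lower genes of 17 under Dex and 4 higher and 5 lower under vehicle. Of the 9 steroid and related receptors 1 was higher and 2 lower under Dex, and 1 was higher and 4 lower under vehicle. The higher one was Pgr, the progesterone receptor, which was not well above background on any WT array and was at least 2.31-fold higher in GR-C3 under Dex. Of 17 coregulators 3 were higher and 2 lower under Dex, and 6 were higher and 1 lower under vehicle, with the arginine methyltransferase Prmt1 higher by 0.81 ± 0.12 under Dex (adjusted p = 0.000549) and by 0.66 ± 0.12 under vehicle (adjusted p = 0.00211).

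With 11 arrays 40.7% of genes were called between genotypes under Dex and 27.3% under vehicle. In that fit the list of heat shock factor 1 regulation and chaperonins had 8 of 13 genes called under Dex and 9 under vehicle, again all higher in GR-C3. The co-chaperones had 5 higher and 3 lower of 22 under Dex and 6 higher under vehicle. For the interaction, where 1.13% of genes were called, Ranbp9 was the only gene called among the 7 pathway lists, with a difference between the Dex changes of -0.98 ± 0.14 (adjusted p = 0.0156). Of the 7 Dex-responsive check genes 3 were called, all with a smaller change in GR-C3: Errfi1 (-1.76 ± 0.13), Cebpd (-1.60 ± 0.17) and Sgk1 (-1.29 ± 0.14), with adjusted p of 0.00062, 0.00311 and 0.00357.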

How the data were processed

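The authors' deposited scanner files, 1 per sample, hold the processed signal as a linear intensity per spot, per the file headers from Agilent Feature Extraction 9.5.3.1 (9.5 per the submitters' processing notes) with mm7 coordinates. The deposited value table equals that intensity for all 45018 spots (tolerance 1e-09). Control spots (1639) were left out, log2 of the intensity was taken and the log2 75th percentile of each array (884 to 1821) subtracted, so the log2 values used here were computed from the deposited intensity. Kept were 30923 of 41174 probes, those well above background on all 3 arrays of a group.

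One limma model (R 4.3.3, limma 3.58.1) over the 4 groups gave the Dex changes, the genotype differences and their interaction, with Benjamini-Hochberg adjustment over all probes. For gene lists, 1 probe a gene (20832 genes) was used. The code was tested on simulated data with 200 changed probes. Probe names were updated to RefSeq by accession (22951), symbol (6661) or synonym (3097), and 8465 kept the name in the file. The labels call the samples biological replicates without naming separate embryos or cultures, so p-values measure only the spread between these samples. The 10 genes and the lists were chosen with earlier results of these data known. All probes of the 10 genes were named, and of each list up to 4 called genes with the smallest p were eligible. Alternatives were other background correction, quantile normalization, no filter, 1 probe a gene, slide and replicate blocks, fits of only the groups compared, and each array left out. The fits on 11 arrays combined with other choices were added after the data were seen. Results for 2 genes that the rules would name are not reported here.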

Additional observations from a re-analysis of the deposited data

Results flagged for a closer look

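The Dex response of Fkbp5 differed between the genotypes on each of its 3 probes in the fit of 11 arrays. The Dex effect in GR-C3 less that in WT was -1.65 on A_51_P383689 (adjusted p = 0.00781), -1.53 on A_52_P337899 (adjusted p = 0.000775) and -1.85 on A_52_P481493 (adjusted p = 0.00452), from the interaction term of limma. The 3 probes read the same RNA samples and are not independent. The array left out of that fit was set apart in part by Dex-responsive values, so these p-values are conditional on that choice. All 3 GR-C3 Dex arrays were below all 3 WT Dex arrays on each probe. All 3 GR-C3 vehicle arrays were above both WT vehicle arrays in that fit. Over all tested probes, 48.3% did not overlap between genotypes under Dex and 64.3% under vehicle with those 11 arrays. With all 12 arrays the interactions were -0.25, -0.18 and -0.45 and none was called. With the slide as a block in the 11-array fit only A_52_P337899 was called, at -1.54 (adjusted p = 0.041), beside -1.82 (adjusted p = 0.108) for A_51_P383689 and -1.66 (adjusted p = 0.0962) for A_52_P481493.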

How the results depend on the processing

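Of 33 called results of single probes followed under the alternatives, 440 of 536 values kept their direction and call, 96 kept their direction and lost the call, and 0 changed sign. For calls of the 11-array fit these alternatives did not include the 12-array fit, in which the Fkbp5 differences under vehicle of A_52_P337899 and A_52_P481493 had the opposite sign (-0.84 and -0.51). Counts called of the 21 probes follow, with the share of all tested probes called in brackets. For Dex in WT the count was 0 with 12 arrays (0.0485%). It was 4 with the slide as a block (4.05%), a fit that takes nothing from WT vehicle replicate 1. It was 0 to 6 when 1 array was left out (0 to 11.3%). With 11 arrays it was 6 (11.3%), and 3 of 10 at 1 probe a gene (12.2%). Without 1 further array outside WT vehicle it was 5 to 13 (8.02 to 21.4%). For Dex in GR-C3 it was 0 with 12 arrays (0.11%), 3 with the slide block (1.37%) and 4 in a fit of the groups compared (2.5%). It was 0 to 4 without 1 array (0 to 2.93%). With 11 arrays it was 4 (2.93%), and 2 of 10 at 1 probe a gene (3.47%). Between genotypes under vehicle it was 3 with 12 arrays (23.3%), 0 with plain normexp (1.18%) and 1 with the slide block (6.69%). It was 2 to 6 without 1 array (14.4 to 26.8%). With 11 arrays it was 6 (26.8%), 2 of 10 at 1 probe a gene (27.3%) and 1 with the slide block (6.69%). Without 1 further array outside WT vehicle it was 4 to 7 (18.5 to 32.3%). Under Dex it was 3 with 12 arrays (27.7%), 0 with plain normexp (1.18%) and 6 in a fit of the groups compared (30.2%). It was 1 to 8 without 1 array (18 to 38.6%). With 11 arrays it was 8 (38.6%), 5 of 10 at 1 probe a gene (40.7%) and 3 with the slide block (14.2%). The interaction count was 0 with 12 arrays (0%), 1 with the slide block (0.129%) and 0 to 3 without 1 array (0 to 0.886%). With 11 arrays it was 3 (0.886%), 1 of 10 at 1 probe a gene (1.13%) and 1 with the slide block (0.129%).

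The deviations of same-numbered samples from their group means correlated at r of -0.23 to 0.20. Samples of different number were not compared, and the array that stood apart enters the WT vehicle means. These values thus do not decide whether the numbers pair the samples. With the replicate number as a block 0, 0, 3, 4 and 0 of the 21 probes were called with 12 arrays for Dex in WT, Dex in GR-C3, genotype under vehicle, genotype under Dex and the interaction, and 7, 4, 6, 8 and 3 with 11. The shares of all tested probes, in that order, were 0%, 0.0517%, 22.7%, 26.5% and 0.00323% with 12 arrays. With 11 they were 14.2%, 2.58%, 30.9%, 40.2% and 0.834%.

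Over all probes, 15 were called for Dex in WT with 12 arrays, against 0 with plain normexp, without a filter, with the replicate block and with the groups compared alone, 51 with normexp with flagged backgrounds replaced, 25 at 1 probe a gene, 1253 with the slide block and 0 to 3497 without 1 array. For Dex in GR-C3 the 34 became 0 with plain normexp, 19 with flagged backgrounds replaced, 136 with quantile normalization, 2 without a filter, 21 at 1 probe a gene, 425 with the slide block, 16 with the replicate block, 773 with the groups compared alone and 0 to 905 without 1 array. The 7216 under vehicle became 365 with plain normexp and 2069 with the slide block, and the 8566 under Dex 364 and 4416. The slide-block fit takes nothing from WT vehicle replicate 1, which is alone on its slide. The cause of these shifts was not tested. With plain normexp the median of all probes was 0.81 for Dex in WT, -0.53 for genotype under Dex, 0.30 under vehicle and -0.65 for the interaction. In the same order the medians of the main 12-array fit were -0.01, 0.11, 0.08 and 0.03. The share of calls that were higher was 48.3% with quantile normalization and 59.0% without it for genotype under Dex. For Dex in GR-C3 it was 39.0% and 82.4%, and for Dex in WT 57.1% and 46.7%. The 3 arrays a group limit the precision, and dim probes near background have only bounds.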
